A study of Mus musculus with 12 samples.

Results

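The RNA of 31 genes of the p53 pathway was followed in leukemic long-term hematopoietic stem cells (LTHSC), the rare cells at the top of blood formation, sorted from mouse bone marrow. The 31 were chosen by name: Trp53, the gene of p53 itself, its partners Mdm2, Mdm4 and Trp53inp1, and 27 genes that p53 is known to switch on. All 31 were found among the 48795 genes of the deposited count table, and all 31 passed the filter on low counts that left 14756 genes for testing. The choice of names used no measured value, although earlier results of these data were known when it was made. The cells came from C57BL/6 mice with chronic myeloid leukemia (CML) in 3 groups of 4 libraries each. Prx1_Cre mice carried a Cre driven by the Prx1 promoter, active in mesenchymal stroma. Tek_Cre mice carried a Cre driven by the Tek promoter, active in endothelial and also in blood-forming cells, so the sorted cells themselves may have carried its action. No_Cre mice carried no Cre. The title of the series names Cxcl12 from the mesenchymal niche, but the Cxcl12 alleles, the leukemia model and the age of the mice are not given in the sources used here, and the labels call the animals both recipient and primary mice.

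The protein p53 is a transcription factor that cells stabilise after DNA damage and other stress. It binds DNA at paired copies of a short motif, the p53 half-site, and raises genes that stop the cell cycle, repair DNA, damp growth signals or kill the cell, while its own targets Mdm2 and Mdm4 hold it in check. In blood stem cells the pathway is known for supporting quiescence and for removing damaged cells. The p53 protein is controlled mainly at the level of its stability, which RNA counts do not measure.

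Each library held 22385590 to 28253956 counts in Prx1_Cre, 15715603 to 28860324 in Tek_Cre and 19988050 to 24007569 in No_Cre. The library Prx1_Cre 4 stood farthest from its group, with a chi-square per degree of freedom of 11.2 to 14.2 against the other Prx1_Cre libraries, where the pairs of No_Cre libraries lay between 2.14 and 3.51. Tek_Cre 4 also stood apart, at 3.19 to 7.76 against the other Tek_Cre libraries, whose pairs lay between 1.89 and 3.66. Libraries of a group had a biological coefficient of variation of 6.82% in Prx1_Cre, 5.29% in Tek_Cre and 3.45% in No_Cre. Within every group the use of 143 Ig kappa V genes correlated at r of 0.998 or more over 18 library pairs, against -0.016 to 0.272 over 48 pairs between groups, so p-values measure the spread between these libraries, which may be smaller than that between mice. LTHSC markers were present in all libraries, with none of 12 at 0. In Prx1_Cre all 12 were lower than in Tek_Cre and than in No_Cre, beside 39.8% and 39.0% of all genes tested. The summed level of the 12 was 1818 to 1855 CPM (counts scaled to a library of equal size) in Prx1_Cre, 3466 to 3495 CPM in Tek_Cre and 3130 to 3192 CPM in No_Cre. All levels come from bulk RNA of sorted cells, in which fewer cells of a type and less RNA per cell cannot be told apart.

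Against No_Cre, 13 of the 31 genes were higher and 8 lower in Prx1_Cre at an adjusted p under 0.05 (edgeR's quasi-likelihood test, Benjamini-Hochberg over all genes tested), and 10 were not called. That is 67.7% of the members, beside 75.6% of all genes tested. Higher calls took 36.7% and lower calls 39.0% of all genes. The median log2 fold change of the members was 0.13, where that of all genes was -0.02. In Tek_Cre against No_Cre, 12 members were higher, 11 lower and 8 not called, or 74.2% called beside 52.9% of all genes (26.4% higher and 26.5% lower). The median of the members was 0.04 and that of all genes 0.00. Prx1_Cre against Tek_Cre gave 16 higher, 10 lower and 5 not called, or 83.9% beside 77.6% of all genes, with 37.8% of all genes higher and 39.8% lower. The members' median was 0.24 and that of all genes -0.01.

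Most of these changes were small. Past a 1.5-fold change (edgeR's glmTreat, adjusted p under 0.05) stood 5 higher and 3 lower members in Prx1_Cre against No_Cre, 25.8% of the members beside 30.8% of all genes (12.5% higher, 18.3% lower). In Tek_Cre against No_Cre 4 members were higher and 0 lower, 12.9% beside 12.4% of all genes (7.08% higher, 5.35% lower). Between Prx1_Cre and Tek_Cre 5 were higher and 4 lower in Prx1_Cre, 29% beside 35.5% of all genes (15.1% higher, 20.4% lower). In all, 12 of the 31 passed this test in at least 1 comparison, a count that was not made over all genes tested.

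In Prx1_Cre against No_Cre all 4 libraries of 1 group lay beyond all 4 of the other for 20 members, 13 with Prx1_Cre above and 7 with it below, where 68.6% of all genes did so (33.2% above, 35.4% below). In Tek_Cre against No_Cre this held for 22 members, 11 above and 11 below, beside 48.7% of all genes (24.3% above, 24.5% below). Prx1_Cre against Tek_Cre had 21 such members, 11 above and 10 below, beside 69.3% of all genes (33.5% above, 35.9% below). Both comparisons with No_Cre use the same 4 No_Cre libraries, so their directions are given side by side only. A total of 4 genes were higher in both Cre groups (Apaf1, Ercc5, Ccng1 and Phlda3), and 2 were lower in both (Xpc and Ddb2). Another 3 were higher in Prx1_Cre and lower in Tek_Cre (Pidd1, Aen and Plk2). The reverse, lower in Prx1_Cre and higher in Tek_Cre, held for 5 (Trp53inp1, Rrm2b, Sesn1, Ak1 and Rps27l). How many of all genes tested show each of these patterns was not counted, so the patterns describe the members only. The mean was highest in Prx1_Cre for 16 members, in Tek_Cre for 10 and in No_Cre for 5, an order not counted over all genes tested.

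**Figure D1:**
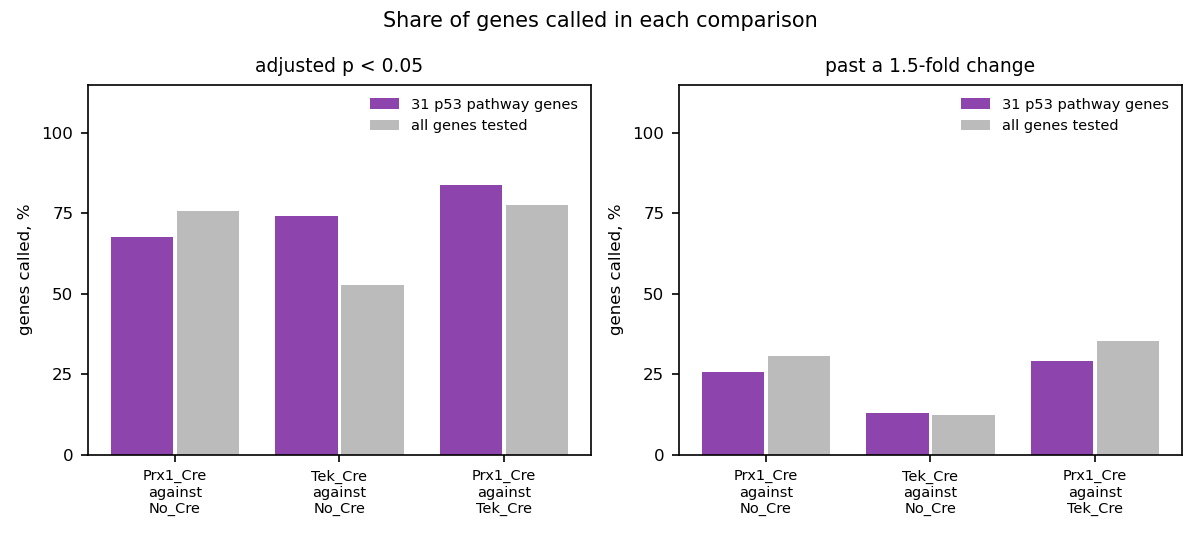
Share of genes called in either direction (vertical axes, percent) in each of the 3 comparisons, at an adjusted p under 0.05 (left) and past the 1.5-fold test (right), for the 31 p53 pathway members (purple) and all 14756 genes tested (grey). In the left panel the members' share is 67.7% beside 75.6% in Prx1_Cre against No_Cre, 74.2% beside 52.9% in Tek_Cre against No_Cre and 83.9% beside 77.6% in Prx1_Cre against Tek_Cre.

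**Figure D2:**
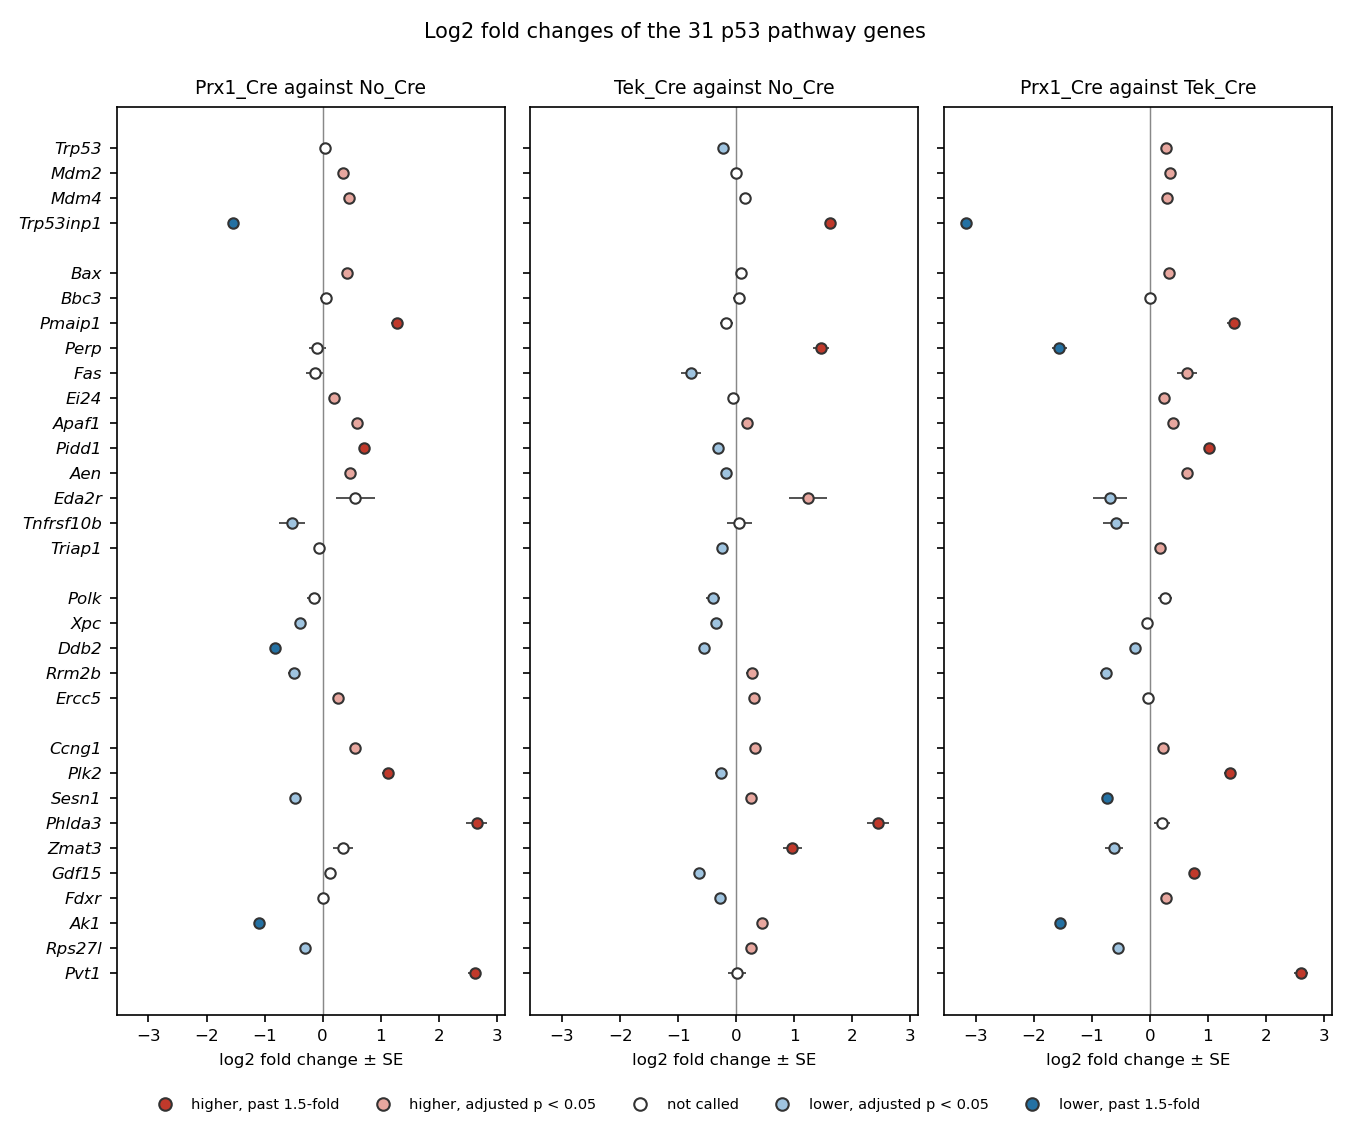
Log2 fold change (horizontal axis, with SE bars) of each of the 31 members in the 3 comparisons, grouped by role, with dark points past the 1.5-fold test, light points at an adjusted p under 0.05 alone and white points not called. Phlda3 and Pvt1 lie farthest to the right in Prx1_Cre against No_Cre at 2.66 and 2.62, and Trp53inp1 lies farthest to the left at -1.54.

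The p53 half-site was searched in promoter windows to see what the members share in sequence. RefSeq windows on GRCm38.p6, from 250 bases before to 50 bases after the start of a transcript, were at hand for 22 of the 31 members. The p53 half-site, a palindromic motif of 10 bases and therefore the same search on both strands, was found in 9 of these 22 genes, or 40.9%, beside 9.55% of the 27025 genes with a window. A gene can have several windows. Counted by window, the half-site was in 10 of 33 member windows, beside 8.36% of all 32851 windows. The members were named for the p53 pathway, so these shares describe the list and are not a test. The full site of 2 half-sites at most 13 bases apart was in 0 members and in 0.074% of genes. Only exact matches to the pattern RRRCWWGYYY (R for A or G, W for A or T, Y for C or T) were counted. Sites with a mismatch or outside these windows were not sought, so 0 members does not mean that these genes lack a full site. Members with and without a half-site showed calls in both directions: in Prx1_Cre against No_Cre 5 of 9 genes with a half-site were higher, 2 lower and 2 not called, and of 13 with a window but no half-site 6 were higher, 1 lower and 6 not called. Windows of 3 classical targets are given whole. All 3 genes were higher in Prx1_Cre than in both other groups, as were Aen and Ei24, which also hold a half-site. So were Apaf1, Pidd1, Plk2 and Mdm4, which have a window but no half-site. The median log2 fold change in Prx1_Cre against No_Cre was 0.20 with a half-site and 0.27 without. Each window is written 5' to 3' on the strand of the gene, with the half-site in capitals. The half-site begins 186 bases before the start in Mdm2, 201 in Bax and 185 in Ccng1.
Bax, chr7:45466849-45467148, minus strand: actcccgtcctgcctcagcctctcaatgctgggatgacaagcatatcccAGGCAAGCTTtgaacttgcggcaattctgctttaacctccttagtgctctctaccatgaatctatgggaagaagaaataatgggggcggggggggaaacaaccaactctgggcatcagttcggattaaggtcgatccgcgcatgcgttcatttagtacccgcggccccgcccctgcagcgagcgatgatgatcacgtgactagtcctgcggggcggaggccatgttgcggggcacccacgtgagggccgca
Ccng1, chr11:40755237-40755536, minus strand: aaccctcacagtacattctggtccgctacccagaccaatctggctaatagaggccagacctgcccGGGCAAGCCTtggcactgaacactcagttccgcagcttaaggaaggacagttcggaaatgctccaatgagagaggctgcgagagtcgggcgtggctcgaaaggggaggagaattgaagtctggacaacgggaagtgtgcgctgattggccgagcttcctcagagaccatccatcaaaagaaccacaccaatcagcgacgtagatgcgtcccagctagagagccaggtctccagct
Mdm2, chr10:117710709-117711008, minus strand: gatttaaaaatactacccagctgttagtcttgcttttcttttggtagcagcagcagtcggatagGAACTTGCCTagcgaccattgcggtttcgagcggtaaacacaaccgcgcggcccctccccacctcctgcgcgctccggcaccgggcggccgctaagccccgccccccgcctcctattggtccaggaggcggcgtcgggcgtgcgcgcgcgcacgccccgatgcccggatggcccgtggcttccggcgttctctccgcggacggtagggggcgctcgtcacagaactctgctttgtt

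The other 7 half-sites, in capitals with 10 bases on either side, lie in Aen, Ei24, Polk, Rps27l, Sesn1 and Trp53, of which Rps27l has 2. These are all the remaining matches, and the 6 genes moved in different ways. Aen and Ei24 were higher in Prx1_Cre than in No_Cre, Sesn1 and Rps27l were lower, and Polk and Trp53 were not called. A match is a description of the letters and not a measured binding site.
Aen, chr7:78895927-78895956, plus strand: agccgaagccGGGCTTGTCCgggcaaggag
Ei24, chr9:36797325-36797354, minus strand: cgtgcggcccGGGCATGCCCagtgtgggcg
Polk, chr13:96519399-96519428, minus strand: catgtagcttGAACTAGCCTcaaacttatt
Rps27l, chr9:66946193-66946222, plus strand: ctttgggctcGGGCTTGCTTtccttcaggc
Rps27l, chr9:66946296-66946325, plus strand: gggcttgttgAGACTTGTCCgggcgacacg
Sesn1, chr10:41887256-41887285, plus strand: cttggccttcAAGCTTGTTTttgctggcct
Trp53, chr11:69580274-69580303, plus strand: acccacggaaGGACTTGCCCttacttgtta

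Of the 4 genes of p53 and its control, Trp53 itself (chromosome 11, 69580359 to 69591873, plus strand, in GRCm38) had 273, 268, 269 and 286 CPM in the Prx1_Cre libraries, 224, 219, 232 and 230 CPM in Tek_Cre and 272, 265, 260 and 265 CPM in No_Cre. All 4 Tek_Cre libraries lay below all others, while Prx1_Cre and No_Cre overlapped. The log2 fold change was -0.23 ± 0.04 (SE) in Tek_Cre against No_Cre, with an adjusted p of 1.04e-05, and 0.04 ± 0.04 in Prx1_Cre against No_Cre, with an adjusted p of 0.269. Between the Cre lines, Trp53 in Prx1_Cre exceeded that in Tek_Cre 1.21-fold (adjusted p = 2.61e-07).

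Mdm2 encodes the ubiquitin ligase that marks p53 for destruction, and is itself among the best known p53 targets. It had 78.6, 79.01, 80.3 and 78.5 CPM in Prx1_Cre, 66.8, 62.1, 59.8 and 60.8 CPM in Tek_Cre and 61.5, 61.3, 64.5 and 62.2 CPM in No_Cre. The 4 Prx1_Cre libraries were above the other 8, which overlapped with each other. The rise was 1.27-fold over No_Cre (log2 fold change 0.34 ± 0.04, adjusted p = 2.21e-07) and 1.27-fold over Tek_Cre (0.34 ± 0.04, adjusted p = 2.5e-07), while Tek_Cre against No_Cre gave 0.00 ± 0.05 (adjusted p = 0.992).

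Mdm4 encodes the sister protein that covers the activation domain of p53. Its levels were 44.0, 38.8, 42.6 and 32.1 CPM in Prx1_Cre, 32.9, 33.2, 31.8 and 30.8 CPM in Tek_Cre and 26.7, 29.8, 32.0 and 27.4 CPM in No_Cre. Library Prx1_Cre 4 lay inside the Tek_Cre range and just above the highest No_Cre library. The log2 fold change was 0.45 ± 0.08 in Prx1_Cre against No_Cre (adjusted p = 1.76e-05), 0.30 ± 0.08 in Prx1_Cre against Tek_Cre (adjusted p = 0.00157) and 0.15 ± 0.08 in Tek_Cre against No_Cre (adjusted p = 0.127). Without Prx1_Cre 4 the Tek_Cre difference passed the threshold, with an adjusted p of 0.0422.

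Trp53inp1 had the widest span of all 31 genes between Prx1_Cre and Tek_Cre. It encodes a nuclear stress protein that p53 induces and that promotes p53 activity. The libraries held 9.61, 8.16, 9.95 and 6.55 CPM in Prx1_Cre, 78.8, 77.3, 78.5 and 74.7 CPM in Tek_Cre and 23.4, 26.3, 26.7 and 24.3 CPM in No_Cre. No groups overlapped, with Tek_Cre highest and Prx1_Cre lowest. It fell 2.91-fold in Prx1_Cre (log2 fold change -1.54 ± 0.09, adjusted p = 1.15e-13) and rose 3.07-fold in Tek_Cre (1.62 ± 0.07, adjusted p = 7.09e-15), both against No_Cre, and Prx1_Cre was 8.95-fold below Tek_Cre (adjusted p = 2.51e-20). All 3 changes passed the 1.5-fold test.

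**Figure D3:**
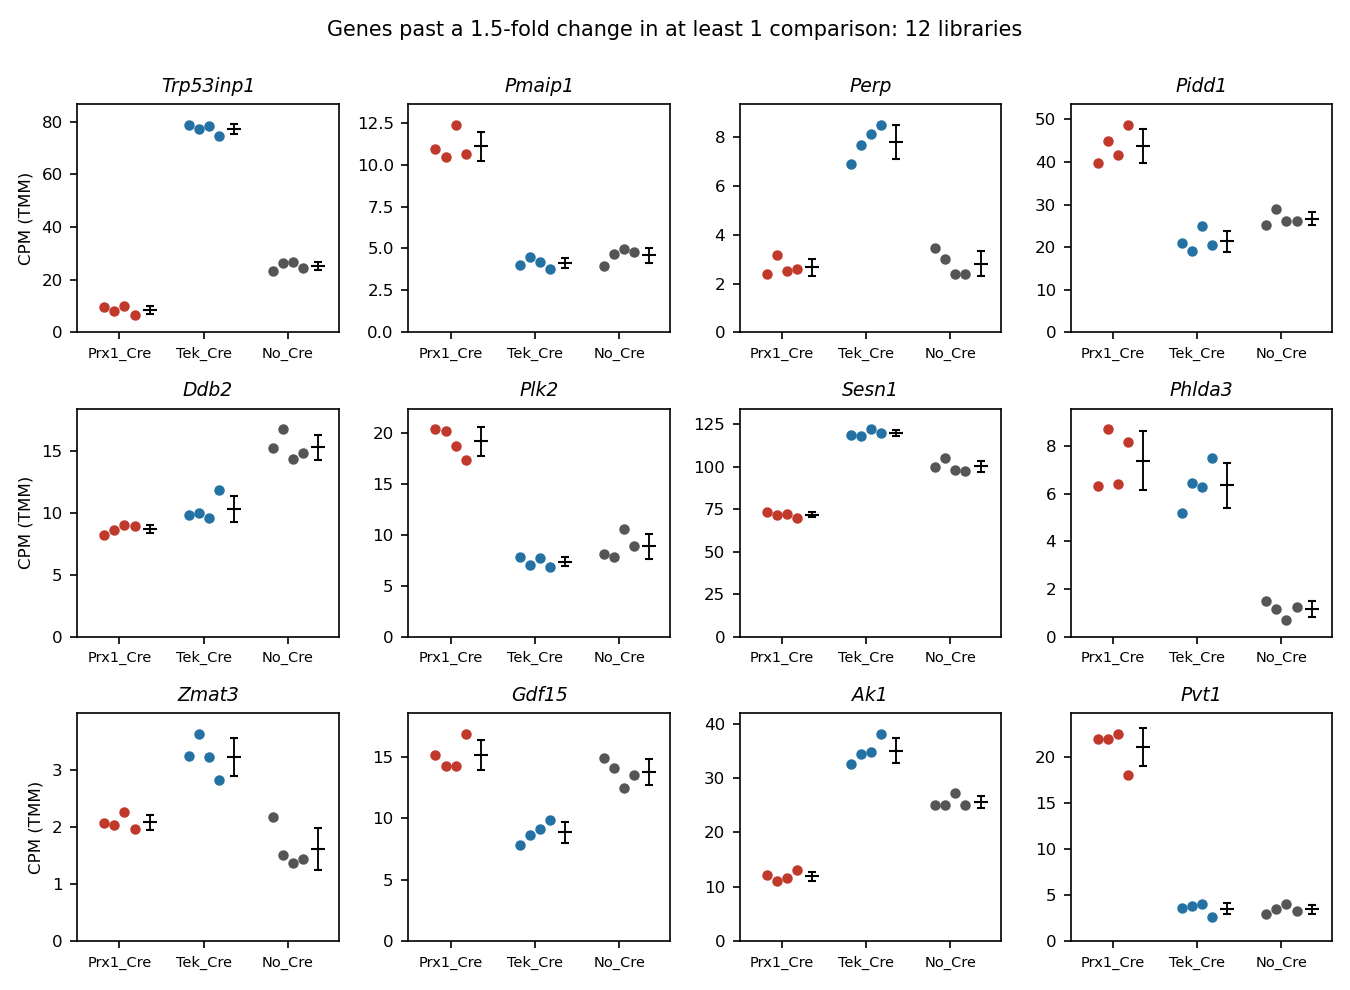
CPM (vertical axes, from 0) of the 12 members past the 1.5-fold test in at least 1 comparison, with Prx1_Cre left, Tek_Cre in the middle and No_Cre right, 1 point per library and bars for mean ± SD of 4. Pvt1, Plk2 and Pmaip1 are high in Prx1_Cre alone, Perp in Tek_Cre alone, and Phlda3 is low in No_Cre alone.

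Of the 12 cell death genes, 6 were higher, 1 lower and 5 not called in Prx1_Cre against No_Cre, or 58.3% called beside 75.6% of all genes. In Tek_Cre against No_Cre 3 were higher, 4 lower and 5 not called (58.3% beside 52.9%), and in Prx1_Cre against Tek_Cre 8 were higher, 3 lower and 1 not called (91.7% beside 77.6%). Bax, which opens the outer mitochondrial membrane, averaged 65.2 ± 3.90 CPM in Prx1_Cre, 51.4 ± 2.34 CPM in Tek_Cre and 48.4 ± 1.67 CPM in No_Cre (SD, n = 4 each), a rise of 1.34-fold in Prx1_Cre over No_Cre (adjusted p = 8.34e-08). Apaf1, the scaffold of the apoptosome that activates caspase-9, averaged 69.3 ± 3.05 CPM in Prx1_Cre, 52.8 ± 1.81 CPM in Tek_Cre and 46.1 ± 2.07 CPM in No_Cre. It was higher in both Cre groups, 1.51-fold in Prx1_Cre (adjusted p = 1.35e-10) and 1.14-fold in Tek_Cre (adjusted p = 0.00275).

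Bbc3 and Pmaip1 encode PUMA and NOXA, BH3-only proteins that p53 induces and that unleash Bax and Bak. Bbc3 was the only member called in no comparison. It had 10.3, 12.7, 11.6 and 11.4 CPM in Prx1_Cre, 12.3, 12.1, 9.71 and 11.5 CPM in Tek_Cre and 11.7, 10.2, 10.5 and 11.8 CPM in No_Cre, and all groups overlapped. Its log2 fold change was 0.05 ± 0.09 in Prx1_Cre against No_Cre (adjusted p = 0.622), 0.04 ± 0.09 in Tek_Cre against No_Cre (adjusted p = 0.735) and 0.01 ± 0.09 in Prx1_Cre against Tek_Cre (adjusted p = 0.934). Pmaip1, by contrast, was called in 2 comparisons. Its libraries held 10.9, 10.5, 12.4 and 10.6 CPM in Prx1_Cre, 4.03, 4.51, 4.18 and 3.76 CPM in Tek_Cre and 3.94, 4.65, 4.995 and 4.80 CPM in No_Cre, with Prx1_Cre above all others. The rise in Prx1_Cre was 2.42-fold over No_Cre (log2 fold change 1.28 ± 0.10, adjusted p = 5.3e-11) and 2.72-fold over Tek_Cre (1.44 ± 0.11, adjusted p = 1.23e-11), both past the 1.5-fold test. Tek_Cre against No_Cre gave -0.17 ± 0.12 (adjusted p = 0.252).

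Perp, a membrane protein that p53 induces during apoptosis, was high in the other Cre group. It had 2.39, 3.17, 2.52 and 2.58 CPM in Prx1_Cre, 6.92, 7.69, 8.15 and 8.51 CPM in Tek_Cre and 3.44, 2.998, 2.39 and 2.40 CPM in No_Cre. The Tek_Cre libraries stood above the other 8, among which Prx1_Cre and No_Cre overlapped. The rise in Tek_Cre over No_Cre was 2.76-fold (log2 fold change 1.47 ± 0.13, adjusted p = 3.32e-09), and Prx1_Cre lay 2.95-fold below Tek_Cre (-1.56 ± 0.13, adjusted p = 1.95e-10). Prx1_Cre against No_Cre gave -0.09 ± 0.15 (adjusted p = 0.589).

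Pidd1, the scaffold of the complex that activates caspase-2, had 39.7, 45.0, 41.7 and 48.7 CPM in Prx1_Cre, 20.9, 19.1, 24.99 and 20.5 CPM in Tek_Cre and 25.3, 28.9, 26.3 and 26.2 CPM in No_Cre. The 3 groups did not overlap. It was 1.64-fold higher in Prx1_Cre than in No_Cre (log2 fold change 0.71 ± 0.07, adjusted p = 6.44e-09), 1.24-fold lower in Tek_Cre than in No_Cre (-0.32 ± 0.08, adjusted p = 0.00187) and Prx1_Cre exceeded Tek_Cre 2.04-fold (adjusted p = 1.61e-11). In the 1.5-fold test the adjusted p of Prx1_Cre against No_Cre was 0.0466. It was 0.372 with upper-quartile scaling and 0.354 with DESeq2. With a stricter filter it was 0.0583 and without immunoglobulin genes 0.0553, and it lay above 0.05 without Prx1_Cre 2 or 4, Tek_Cre 1, or No_Cre 1, 3 or 4, reaching 0.15 without Prx1_Cre 4. Aen, a nuclease that p53 induces and that enhances apoptosis, was likewise higher in Prx1_Cre and lower in Tek_Cre than in No_Cre, at 69.4 ± 3.72 CPM in Prx1_Cre, 44.6 ± 2.69 CPM in Tek_Cre and 50.2 ± 0.738 CPM in No_Cre, with adjusted p of 1.67e-08 for Prx1_Cre against No_Cre and 0.00915 for Tek_Cre against No_Cre.

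Among the cell death genes, the receptors were low. Fas, the receptor for Fas ligand, had 3.89, 3.83, 3.88 and 2.58 CPM in Prx1_Cre, 2.63, 3.03, 1.72 and 1.90 CPM in Tek_Cre and 3.48, 4.07, 4.02 and 4.01 CPM in No_Cre. Tek_Cre lay below No_Cre in all libraries (log2 fold change -0.77 ± 0.17, adjusted p = 0.000652), and library Prx1_Cre 4 fell among the Tek_Cre libraries. Eda2r, the receptor for ectodysplasin A2, rested on few counts, 73 over the 4 Prx1_Cre libraries, 86 in Tek_Cre and 44 in No_Cre. It averaged 0.669 ± 0.235 CPM in Prx1_Cre, 1.11 ± 0.185 CPM in Tek_Cre and 0.469 ± 0.199 CPM in No_Cre, and rose 2.36-fold in Tek_Cre over No_Cre (adjusted p = 0.00254). Its other results turn on single libraries. Without Prx1_Cre 4 the adjusted p against No_Cre was 0.0349 where it was 0.133 with it, and the adjusted p of Prx1_Cre against Tek_Cre was 0.14 where it was 0.0404 with it, a call also lost with DESeq2, without a filter on low counts, and without Prx1_Cre 2 or 3 or Tek_Cre 2 or 3. Tnfrsf10b, the mouse TRAIL receptor, averaged 0.993 ± 0.263 CPM in Prx1_Cre, 1.503 ± 0.134 CPM in Tek_Cre and 1.45 ± 0.320 CPM in No_Cre. It was lower in Prx1_Cre against No_Cre at an adjusted p of 0.0342, a call lost with DESeq2 (0.0565), without a filter on low counts, in a fit of the 8 libraries compared, and without No_Cre 1 (0.161), No_Cre 3, or Prx1_Cre 2, 3 or 4.

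Ei24, an endoplasmic reticulum protein that p53 induces, averaged 74.0 ± 4.66 CPM in Prx1_Cre, 62.5 ± 5.29 CPM in Tek_Cre and 64.3 ± 1.66 CPM in No_Cre. Its call in Prx1_Cre against No_Cre (log2 fold change 0.20 ± 0.06, adjusted p = 0.00198) was lost with upper-quartile scaling, which shifted the median of all genes by -0.096 in that comparison and gave Ei24 0.11 (adjusted p = 0.0826). Triap1, a small inhibitor of apoptosis that p53 also induces, averaged 41.1 ± 2.69 CPM in Prx1_Cre, 36.1 ± 2.01 CPM in Tek_Cre and 42.8 ± 1.02 CPM in No_Cre. It fell in Tek_Cre against No_Cre (-0.24 ± 0.06, adjusted p = 0.00118), and in Prx1_Cre it fell, of the alternatives run, only with upper-quartile scaling (-0.15, adjusted p = 0.0162, beside -0.06 ± 0.06, adjusted p = 0.342).

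Among the 5 genes of DNA repair and nucleotide supply, 1 was higher, 3 lower and 1 not called in Prx1_Cre against No_Cre, or 80% called beside 75.6% of all genes. For Tek_Cre against No_Cre 2 were higher and 3 lower (100% beside 52.9%), and in Prx1_Cre against Tek_Cre 0 were higher, 2 lower and 3 not called (40% beside 77.6%). The 2 damage sensors of nucleotide excision repair were lower in both Cre groups. Ddb2, which finds ultraviolet lesions, had 8.24, 8.58, 9.02 and 8.92 CPM in Prx1_Cre, 9.85, 9.98, 9.60 and 11.8 CPM in Tek_Cre and 15.2, 16.7, 14.4 and 14.8 CPM in No_Cre. No_Cre lay above the other libraries, and no groups overlapped. It fell 1.76-fold in Prx1_Cre (log2 fold change -0.82 ± 0.09, adjusted p = 6.62e-09), past the 1.5-fold test with edgeR (0.00529) but not with DESeq2 (0.0554), and 1.47-fold in Tek_Cre (-0.56 ± 0.09, adjusted p = 8.61e-06). The call of Prx1_Cre against Tek_Cre (-0.26 ± 0.09, adjusted p = 0.0131) was lost without Tek_Cre 4 (adjusted p = 0.0982) and without a filter on low counts (0.0607). Ddb2 shares 652 exon bases, 23.8% of its exon length, with Acp2 on the other strand, and whether counting used strand is not given in the sources used here. Acp2 drew 11896 counts over all libraries and Ddb2 3225, so reads of Acp2 may be among those of Ddb2.

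Xpc, the sensor of distorted DNA, averaged 136 ± 6.99 CPM in Prx1_Cre, 140 ± 3.87 CPM in Tek_Cre and 177 ± 1.58 CPM in No_Cre, and fell 1.31-fold in Prx1_Cre (adjusted p = 5.84e-09) and 1.27-fold in Tek_Cre (adjusted p = 1.84e-07). Ercc5, the nuclease that cuts on the 3' side of the lesion, was higher in both, at 18.9 ± 1.01 CPM in Prx1_Cre, 19.5 ± 2.69 CPM in Tek_Cre and 15.7 ± 0.760 CPM in No_Cre. Its adjusted p was 0.00551 in Prx1_Cre, a call lost with upper-quartile scaling (0.0661), and 0.0041 in Tek_Cre. Polk, a polymerase that copies past lesions, was lower in Tek_Cre than in No_Cre (9.68 ± 1.47 CPM in Tek_Cre and 12.9 ± 0.982 CPM in No_Cre, adjusted p = 0.00739), with 11.7 ± 2.23 CPM in Prx1_Cre (adjusted p = 0.255 against No_Cre). Prx1_Cre against Tek_Cre missed the threshold for Polk (adjusted p = 0.0569) and passed it without Prx1_Cre 4 (0.00165), Prx1_Cre 3 or Tek_Cre 1, without a filter on low counts (0.00639) and with DESeq2 (0.048). Rrm2b, the p53-inducible subunit of the enzyme that makes deoxynucleotides, averaged 5.36 ± 0.543 CPM in Prx1_Cre, 9.07 ± 1.08 CPM in Tek_Cre and 7.51 ± 0.309 CPM in No_Cre. It fell in Prx1_Cre against No_Cre (log2 fold change -0.49 ± 0.11, adjusted p = 0.000216). Its rise in Tek_Cre (0.26 ± 0.10, adjusted p = 0.0342) was lost without Tek_Cre 2 (adjusted p = 0.121), Tek_Cre 4, or No_Cre 1, 3 or 4, and without a filter on low counts.

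The 10 genes of cell cycle, growth, stress and metabolism held the largest changes against No_Cre. In Prx1_Cre against No_Cre 4 were higher, 3 lower and 3 not called, or 70% called beside 75.6% of all genes. Tek_Cre against No_Cre had 6 higher, 3 lower and 1 not called (90% beside 52.9%), and in Prx1_Cre against Tek_Cre 5 were higher, 4 lower and 1 not called (90% beside 77.6%). Phlda3, which competes with Akt for membrane lipids and so damps Akt signalling, had 6.31, 8.70, 6.40 and 8.17 CPM in Prx1_Cre, 5.21, 6.43, 6.27 and 7.52 CPM in Tek_Cre and 1.51, 1.15, 0.707 and 1.25 CPM in No_Cre. Both Cre groups stood above every No_Cre library and overlapped with each other. The rise over No_Cre was 6.30-fold in Prx1_Cre (log2 fold change 2.66 ± 0.18, adjusted p = 3.07e-12) and 5.45-fold in Tek_Cre (2.45 ± 0.19, adjusted p = 1.4e-10), both past the 1.5-fold test, and Prx1_Cre against Tek_Cre gave 0.21 ± 0.14 (adjusted p = 0.182). It is the only member past the 1.5-fold test in the same direction in both Cre groups, and both comparisons share the low No_Cre libraries, which rest on 112 counts in all.

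Pvt1, a long non-coding RNA next to Myc, had 21.9, 21.9, 22.5 and 18.1 CPM in Prx1_Cre, 3.55, 3.85, 4.08 and 2.64 CPM in Tek_Cre and 2.94, 3.50, 4.02 and 3.32 CPM in No_Cre. Every Prx1_Cre library lay far above the other 8, which overlapped. The rise in Prx1_Cre was 6.14-fold over No_Cre (log2 fold change 2.62 ± 0.11, adjusted p = 8.77e-16) and 6.09-fold over Tek_Cre (2.61 ± 0.12, adjusted p = 1.35e-15), and Tek_Cre against No_Cre gave 0.01 ± 0.15 (adjusted p = 0.946). Plk2, a polo-like kinase that p53 induces at the damage checkpoint, had 20.4, 20.2, 18.8 and 17.4 CPM in Prx1_Cre, 7.84, 7.10, 7.78 and 6.86 CPM in Tek_Cre and 8.12, 7.88, 10.6 and 8.90 CPM in No_Cre. Prx1_Cre was again above all others, 2.17-fold over No_Cre (1.12 ± 0.09, adjusted p = 9.47e-11) and 2.597-fold over Tek_Cre (1.38 ± 0.10, adjusted p = 4.57e-12). The lower value in Tek_Cre against No_Cre (-0.26 ± 0.10, adjusted p = 0.0416) lost its call without No_Cre 3 (adjusted p = 0.178), No_Cre 4, Tek_Cre 2 or Tek_Cre 4.

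Sesn1 and Ak1 ran the other way. Sestrin 1 (Sesn1) restrains the growth kinase complex mTORC1, and its libraries held 73.5, 71.8, 71.9 and 70.0 CPM in Prx1_Cre, 119, 118, 122 and 120 CPM in Tek_Cre and 99.9, 105, 98.0 and 97.5 CPM in No_Cre. The groups did not overlap. Sesn1 fell 1.39-fold in Prx1_Cre (log2 fold change -0.48 ± 0.04, adjusted p = 1.22e-10) and rose 1.20-fold in Tek_Cre (0.26 ± 0.04, adjusted p = 7.71e-06), both against No_Cre, and was 1.67-fold lower in Prx1_Cre than in Tek_Cre (adjusted p = 3.61e-14). Ak1, an adenylate kinase that balances adenine nucleotides, had 12.1, 11.1, 11.6 and 13.01 CPM in Prx1_Cre, 32.6, 34.5, 34.7 and 38.1 CPM in Tek_Cre and 25.1, 25.1, 27.2 and 25 CPM in No_Cre. It too had no overlap between groups, with a fall of 2.14-fold in Prx1_Cre (-1.10 ± 0.07, adjusted p = 1.03e-12), past the 1.5-fold test, and a rise of 1.37-fold in Tek_Cre (0.45 ± 0.07, adjusted p = 3.57e-06).

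Zmat3, an RNA-binding zinc finger protein that p53 induces, had 2.06, 2.02, 2.26 and 1.96 CPM in Prx1_Cre, 3.24, 3.62, 3.22 and 2.81 CPM in Tek_Cre and 2.17, 1.499, 1.37 and 1.43 CPM in No_Cre. Tek_Cre lay above all other libraries, and No_Cre 1 lay inside the Prx1_Cre range. The rise in Tek_Cre over No_Cre was 1.96-fold (log2 fold change 0.97 ± 0.17, adjusted p = 4.15e-05). It passed the 1.5-fold test at an adjusted p of 0.0338, which was lost with DESeq2 (0.434), without a filter on low counts (0.063), in a fit of the 8 libraries compared (0.0508), and without No_Cre 3 (0.108), No_Cre 2 or 4, or Tek_Cre 1, 2 or 3. In Prx1_Cre against No_Cre the adjusted p was 0.0682, and 0.0107 without No_Cre 1.

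Ccng1, the cyclin G1 gene and a classical p53 target, was higher in both Cre groups, at 70.9 ± 6.19 CPM in Prx1_Cre, 60.3 ± 4.23 CPM in Tek_Cre and 48.4 ± 2.69 CPM in No_Cre. The changes were 1.47-fold in Prx1_Cre (adjusted p = 2.53e-08) and 1.24-fold in Tek_Cre (adjusted p = 0.000217). Gdf15, a secreted stress cytokine, had 15.1, 14.2, 14.3 and 16.9 CPM in Prx1_Cre, 7.80, 8.65, 9.17 and 9.83 CPM in Tek_Cre and 15.0, 14.1, 12.5 and 13.5 CPM in No_Cre. Tek_Cre lay below all other libraries, with a log2 fold change of -0.63 ± 0.09 against No_Cre (adjusted p = 4.34e-06). Prx1_Cre exceeded Tek_Cre 1.70-fold (adjusted p = 5.56e-08), past the 1.5-fold test at an adjusted p of 0.0224 that was lost without Prx1_Cre 4 (0.0637) or Tek_Cre 1 (0.0979), with upper-quartile scaling (0.113) and with DESeq2 (0.16).

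Fdxr, a mitochondrial reductase for steroid and iron-sulfur chemistry, averaged 37.0 ± 2.40 CPM in Prx1_Cre, 30.4 ± 2.65 CPM in Tek_Cre and 36.8 ± 2.79 CPM in No_Cre, and was lower in Tek_Cre against No_Cre (-0.28 ± 0.07, adjusted p = 0.00162). Rps27l, a ribosomal protein gene that p53 induces, averaged 76.9 ± 9.02 CPM in Prx1_Cre, 113 ± 9.15 CPM in Tek_Cre and 94.6 ± 6.51 CPM in No_Cre. It fell in Prx1_Cre (-0.30 ± 0.07, adjusted p = 0.000746) and rose in Tek_Cre (0.25 ± 0.07, adjusted p = 0.00551), both against No_Cre. Reads that Rps27l shares with its close copy Rps27 may have been assigned to either.

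The levels of the members differed by far more than their changes. Divided by exon length, Rps27l was highest in every group, at 94.2 ± 11.1 CPM per kilobase in Prx1_Cre, 138 ± 11.2 in Tek_Cre and 116 ± 7.98 in No_Cre, and Trp53 was next, at 67.8 ± 2.04 CPM per kilobase in Prx1_Cre, 55.9 ± 1.49 in Tek_Cre and 65.7 ± 1.24 in No_Cre. The lowest was Eda2r, at 0.114 ± 0.0399 CPM per kilobase in Prx1_Cre, 0.189 ± 0.0315 in Tek_Cre and 0.0796 ± 0.0338 in No_Cre. Neighbours in this order were often within their spread: in No_Cre, Ccng1 (13.8 ± 0.765), Ei24 (13.2 ± 0.341) and Fdxr (13.1 ± 0.994 CPM per kilobase) could not be ordered. Trp53inp1 changed place most between groups, with rank 27 of 31 in Prx1_Cre, 11 in Tek_Cre and 18 in No_Cre. Phlda3 held rank 16 in Prx1_Cre, 18 in Tek_Cre and 27 in No_Cre.

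**Figure D4:**
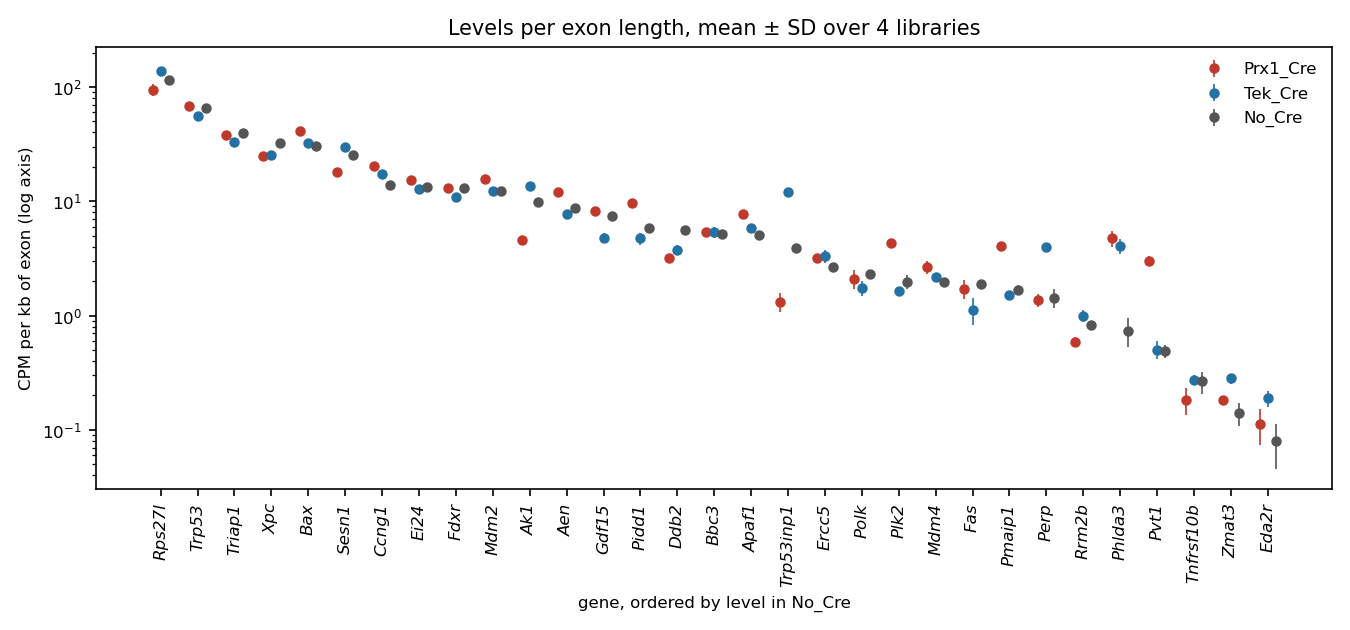
Mean level of the 31 members in CPM per kilobase of exon (log axis) in Prx1_Cre, Tek_Cre and No_Cre, with SD bars over 4 libraries. Rps27l and Trp53 are highest and Eda2r is lowest in all 3 groups, and Trp53inp1 shows the widest gap between Prx1_Cre and Tek_Cre.

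Other genes of the pathway were read from a list of 40 further p53 targets, of which 35 could be tested. In Prx1_Cre against No_Cre 18 were higher, 16 lower and 1 not called (median log2 fold change 0.23), or 97.1% called beside 75.6% of all genes. Tek_Cre against No_Cre had 13 higher, 6 lower and 16 not called (0.02), or 54.3% beside 52.9%. In Prx1_Cre against Tek_Cre 17 were higher, 16 lower and 2 not called (-0.06), or 94.3% beside 77.6%. Cdkn1a, the cell cycle inhibitor p21, averaged 37.5 ± 1.51 CPM in Prx1_Cre, 25.03 ± 0.221 CPM in Tek_Cre and 20.6 ± 1.89 CPM in No_Cre, 1.82-fold higher in Prx1_Cre than in No_Cre (adjusted p = 1.35e-11) and 1.22-fold higher in Tek_Cre (adjusted p = 0.00106). Btg2, an antiproliferative target, fell in both Cre groups, at 139.5 ± 3.995 CPM in Prx1_Cre, 220 ± 3.37 CPM in Tek_Cre and 269 ± 3.89 CPM in No_Cre, with log2 fold changes of -0.95 ± 0.04 in Prx1_Cre (adjusted p = 4.13e-17) and -0.29 ± 0.04 in Tek_Cre (adjusted p = 2.43e-07) against No_Cre.

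Gadd45a, a growth arrest and damage gene, averaged 39.3 ± 0.843 CPM in Prx1_Cre, 16.4 ± 0.907 CPM in Tek_Cre and 18.4 ± 1.31 CPM in No_Cre, 2.14-fold higher in Prx1_Cre than in No_Cre (adjusted p = 1.47e-13). Ppm1d, the phosphatase that shuts the response off, was higher in Prx1_Cre than in No_Cre by a log2 fold change of 0.24 ± 0.05 (adjusted p = 0.000394) and not called in Tek_Cre (adjusted p = 0.841). The largest called changes of the list in Prx1_Cre against No_Cre were those of Vcan, Crip2 and Ephx1. Crip2, a LIM domain protein, had 72.9 ± 5.55 CPM in Prx1_Cre, 5.33 ± 0.556 CPM in Tek_Cre and 6.08 ± 0.428 CPM in No_Cre (log2 fold change against No_Cre 3.58 ± 0.08, adjusted p = 6.31e-22). Vcan, a matrix proteoglycan, rested on 60 counts in Prx1_Cre, 0 in Tek_Cre and 4 in No_Cre. Ephx1, an epoxide hydrolase, had 2.27 ± 0.312 CPM in Prx1_Cre, 14.5 ± 0.731 CPM in Tek_Cre and 8.07 ± 0.477 CPM in No_Cre, lower in Prx1_Cre (-1.83 ± 0.11, adjusted p = 4.64e-13) and higher in Tek_Cre (0.84 ± 0.09, adjusted p = 4.63e-08). In Tek_Cre against No_Cre the largest called changes were Trp53cor1 (lincRNA-p21, 1.04 ± 0.15, adjusted p = 2.74e-06) and Dram1, an autophagy regulator (-0.88 ± 0.08, adjusted p = 5.98e-09).

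Of 24 regulators that act on p53 22 could be tested. In Prx1_Cre against No_Cre 9 were higher, 7 lower and 6 not called (median log2 fold change -0.01), or 72.7% called beside 75.6% of all genes. Tek_Cre against No_Cre had 3 higher, 9 lower and 10 not called (-0.16), or 54.5% beside 52.9%. In Prx1_Cre against Tek_Cre 12 were higher, 4 lower and 6 not called (0.20), or 72.7% beside 77.6%, and the split was 8 higher and 6 lower with upper-quartile scaling. Chek1, the kinase of the replication checkpoint, averaged 22.3 ± 3.21 CPM in Prx1_Cre, 8.75 ± 1.30 CPM in Tek_Cre and 11.8 ± 0.733 CPM in No_Cre, higher in Prx1_Cre (log2 fold change 0.92 ± 0.10, adjusted p = 1.7e-08) and lower in Tek_Cre (-0.45 ± 0.12, adjusted p = 0.0022) than in No_Cre. Chek2 moved the same ways by 0.25 ± 0.06 (adjusted p = 0.000969) and -0.46 ± 0.07 (adjusted p = 3.19e-06). Atm, the kinase of the double-strand break response, was higher in Prx1_Cre than in No_Cre (0.39 ± 0.11, adjusted p = 0.00182) and not called in Tek_Cre (adjusted p = 0.322). Of the genes of acetyltransferases that act on p53, Crebbp was lower in Prx1_Cre (-1.05 ± 0.05, adjusted p = 1.41e-14) and in Tek_Cre (-0.32 ± 0.05, adjusted p = 1.5e-05), and so was Ep300, by -0.41 ± 0.06 in Prx1_Cre (adjusted p = 3.04e-06) and -0.58 ± 0.06 in Tek_Cre (adjusted p = 6.94e-08). Kat5, the gene of TIP60, was higher in both, by 0.33 ± 0.05 in Prx1_Cre (adjusted p = 4.71e-07) and 0.34 ± 0.05 in Tek_Cre (adjusted p = 1.26e-06). Ppp1r13b, a p53 cofactor of the ASPP family, was lower in Prx1_Cre (-0.90 ± 0.04, adjusted p = 3.68e-16) and higher in Tek_Cre (0.19 ± 0.04, adjusted p = 0.000165) than in No_Cre. Cdkn2a, which encodes the Mdm2 inhibitor Arf, did not pass the filter, with 1 count in Prx1_Cre, 11 in Tek_Cre and 9 in No_Cre.

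Markers of other cell types moved with the groups. Of all genes tested, 36.7% were higher and 39.0% lower in Prx1_Cre than in No_Cre. In Tek_Cre against No_Cre the shares were 26.4% and 26.5%. The summed level of 14 erythroid markers was 6406 to 6493 CPM in Prx1_Cre, 1257 to 1308 CPM in Tek_Cre and 1729 to 1776 CPM in No_Cre, with none at 0 in any group. Against No_Cre, 14 of 14 were higher in Prx1_Cre, and 12 were lower and 2 not called in Tek_Cre. Markers of neutrophils summed to 52655 to 54906 CPM in Prx1_Cre, 38496 to 39000 CPM in Tek_Cre and 30218 to 30562 CPM in No_Cre, with 10 of 12 higher and 1 lower in Prx1_Cre than in No_Cre. In Tek_Cre 7 were higher and 5 lower than in No_Cre. Past the 1.5-fold test 3 were higher and 5 lower, beside 7.08% and 5.35% of all genes. The 3 higher were S100a8 (1.80-fold), S100a9 (1.72-fold) and Mmp8 (2.17-fold). The 5 lower were Mpo (3.94-fold), Elane (2.85-fold), Prtn3 (1.83-fold), Ctsg (5.10-fold) and Ms4a3 (2.20-fold). B and plasma cell markers summed to 1108 to 1159 CPM in Prx1_Cre, 93513 to 99667 CPM in Tek_Cre and 18285 to 18797 CPM in No_Cre, and Pax5, which defines the B lineage, was at 0 in Prx1_Cre and in Tek_Cre. Immunoglobulin genes took 0.301 ± 0.00589% of counts in Prx1_Cre, 25.7 ± 0.353% in Tek_Cre and 7.45 ± 0.175% in No_Cre. T and NK cell markers summed to 294.7 to 299.9 CPM in Prx1_Cre, 265.5 to 285.7 CPM in Tek_Cre and 457.4 to 471.9 CPM in No_Cre. Of the 7 tested of 12, 6 were lower in Prx1_Cre than in No_Cre, and 3 were higher and 2 lower in Tek_Cre. The 10 markers of stroma and endothelium summed to 86.8 to 93.6 CPM in Prx1_Cre, 138.7 to 150.8 CPM in Tek_Cre and 152 to 163.1 CPM in No_Cre. Of the 5 tested, 2 were higher and 3 lower in Prx1_Cre than in No_Cre, and 1 was higher and 2 lower in Tek_Cre. The 3 lower in Prx1_Cre, all past the 1.5-fold test, were Col1a2 (1.93-fold, adjusted p = 9.68e-06), Pecam1 (1.77-fold, adjusted p = 1.44e-13) and Tek (2.03-fold, adjusted p = 1.7e-13). Pecam1 and Tek were the 2 lower in Tek_Cre. The Tek promoter is also active in blood-forming cells, so Tek RNA need not come from endothelium. Which cells the RNA of these markers came from was not tested, and their sum does not count niche cells. Col1a1, a collagen of stroma, was 1.99-fold higher in Prx1_Cre (adjusted p = 0.000463) and 2.40-fold higher in Tek_Cre (adjusted p = 8.08e-05) than in No_Cre, and Kdr, an endothelial receptor, was 2.26-fold higher in Prx1_Cre (adjusted p = 3.3e-06). Lepr, a marker of marrow stroma, had 37 counts in Prx1_Cre, 2 in Tek_Cre and 1 in No_Cre. Prrx1, the gene of the Prx1 promoter, was at 0 in all 3 groups. Mitochondrial genes took 0.388 ± 0.0743% of counts in Prx1_Cre, 0.115 ± 0.0107% in Tek_Cre and 0.133 ± 0.0111% in No_Cre. The part of these cells, and of the mitochondrial share, in the changes of the p53 pathway genes was not tested. In a fit without the immunoglobulin genes the members called higher and lower were 13 and 8 in Prx1_Cre against No_Cre, 12 and 11 in Tek_Cre against No_Cre, and 16 and 10 in Prx1_Cre against Tek_Cre. Without Prx1_Cre 4 the counts were 14 and 7, 13 and 11, and 17 and 9.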

How the data were processed

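Total RNA of the sorted cells was made into 12 libraries with the SMARTer Ultra Low Input (v4) and Nextera XT kits, per the labels. The authors deposited whole-number gene counts, not normalized, as 1 table with a column for each library and 48795 Ensembl identifiers. The tools named, without roles, per the submitters' processing notes are HTSeq 0.9.1, STAR 2.5.3a, DESeq2 1.18.1 and Trim Galore 0.4.4, with genome GRCm38. The gene annotation used, whether counting used strand, and how shared reads were treated are not given in the sources used here. Symbols, coordinates and exon lengths come from GENCODE M21, which named 48435 identifiers; all 31 members matched, 21 with the same version.

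Counts were fitted in edgeR 4.0.16 (R 4.3.3, limma 3.58.1) with filterByExpr, TMM factors, a group term, all 12 libraries and the robust quasi-likelihood test; Benjamini-Hochberg adjustment ran over all 14756 genes tested, and glmTreat tested against a 1.5-fold change. The script was checked on simulated counts. CPM are TMM-scaled, with mean ± SD over 4 libraries. Same-numbered libraries of different groups correlated at -0.054 to 0.316 after removal of group means, with 4 of 12 pairs over 0.1. The libraries numbered 4 correlated at 0.316 (Prx1_Cre and Tek_Cre), 0.164 (Prx1_Cre and No_Cre) and 0.109 (Tek_Cre and No_Cre). A library's best match in another group bore its own number in 12 of 24 comparisons. What a shared number means is not given, so the main fit did not pair by it, and a factor shared by same-numbered libraries remains possible. Alternatives were DESeq2 1.42.0, upper-quartile factors, other filters, fewer libraries, no immunoglobulin genes and a replicate block. Values per library are given for members past the 1.5-fold test and for Trp53, Mdm2, Mdm4 and Bbc3, up to 8 members a comparison, and for Sesn1 and Fas, which were chosen after their values were seen. The design text speaks of biological replicates. The members and lists were chosen with earlier results of these data known. Plots were drawn with matplotlib 3.10.9.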

Additional observations from a re-analysis of the deposited data

Results flagged for a closer look

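In 8 of the 93 sets of 4 libraries (31 members in 3 groups) the highest or lowest library stood far from the other 3 of its group, by a gap test that chance alone meets in about 1 of 20 sets. The library Prx1_Cre 4 was involved in 3 of them. In Prx1_Cre it was lowest for Fas, the death receptor, at 2.585 CPM where the others had 3.835 to 3.889 CPM, lowest for the non-coding RNA Pvt1 at 18.05 CPM where the others had 21.93 to 22.53 CPM, and highest for the nuclease gene Aen at 74.96 CPM where the others had 67.23 to 67.75 CPM. In Tek_Cre, library 4 was highest for the damage sensor Ddb2 at 11.85 CPM, beside 9.599 to 9.983 CPM.

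In No_Cre, library 1 was lowest for Fas at 3.48 CPM, beside 4.013 to 4.074 CPM, and highest for the RNA-binding protein gene Zmat3 at 2.165 CPM, beside 1.37 to 1.499 CPM. No_Cre 3 was lowest for the repair nuclease Ercc5 at 14.54 CPM, beside 15.93 to 16.19 CPM, and highest for the adenylate kinase Ak1 at 27.23 CPM, beside 25 to 25.1 CPM.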

How the results depend on the processing

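All 30 counts of calls (members, other targets, regulators and all genes tested, in each direction) stayed within 1.5 times their value under every alternative run. With 1 library left out, members called higher and lower ran from 13 to 14 and 7 to 8 in Prx1_Cre against No_Cre, 11 to 13 and 10 to 11 in Tek_Cre against No_Cre, and 16 to 17 and 8 to 10 in Prx1_Cre against Tek_Cre. With the replicate block they were 13 and 8, 13 and 11, and 17 and 10. What same-numbered libraries share beyond the number is not given. The block added Mdm4 in Tek_Cre against No_Cre (adjusted p = 0.0449) and Polk in Prx1_Cre against Tek_Cre (adjusted p = 0.0282). For 10 of the 93 member results the sign changed, always without a call (lowest adjusted p 0.183), and the cause was not tested. In Prx1_Cre against No_Cre upper-quartile factors gave log2 fold changes of -0.05 for Trp53, -0.04 for Bbc3 and -0.09 for Fdxr, which was -0.001 with the stricter filter and -0.002 without immunoglobulin genes. With 1 library left out the ranges were -0.0002 to 0.10 for Bbc3, -0.18 to 0.02 for Perp and -0.05 to 0.04 for Fdxr. In Tek_Cre against No_Cre Mdm2 was -0.02 with upper-quartile factors and without a filter, -0.002 with the stricter filter, -0.01 without immunoglobulin genes and in the 8 libraries alone, and -0.004 with DESeq2, while Pvt1 was -0.003 with upper-quartile factors and -0.01 without a filter. Leaving out 1 library gave -0.04 to 0.02 for Mdm2, -0.004 to 0.11 for Bbc3, -0.03 to 0.21 for Tnfrsf10b and -0.07 to 0.14 for Pvt1. In Prx1_Cre against Tek_Cre Bbc3 was -0.07 with upper-quartile factors and Ercc5 0.0002 without a filter, with ranges of -0.06 to 0.07 for Bbc3 and -0.10 to 0.03 for Ercc5. Depth limits Eda2r (44 to 86 counts per group), Tnfrsf10b (108 to 140), Phlda3 in No_Cre (112), Zmat3 in No_Cre (157) and Fas in Tek_Cre (179) most.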
